A study of Mus musculus with 61 samples.

Results

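Cholangiocytes are the epithelial cells that line the bile ducts, and 6 genes commonly used to mark them or their precursors were followed in liver RNA of mice from 8 inbred founder strains: Krt19, Krt7, Epcam, Cldn7, Sox9 and Sox4. They were chosen by gene symbol, and all 6 were among the 18754 genes of the count table and among the 16165 that had enough reads to be tested. The livers came from strain-129 (written so here because its label is a bare number), AJ, B6, Cast, NOD, NZO, PWK and WSB (AJ is represented by 6 libraries, B6 and Cast by 7 each and the remaining 5 strains by 8 each), from which the Diversity Outbred mouse stock was bred. Every mouse was fed a high-fat, high-sugar diet, given in the labels as 45% fat, so no strain was measured on another diet and none served as a control. The labels give neither sex, age nor time of collection, and do not say whether the libraries of a strain came from separate mice, so the p-values reflect library-to-library spread that can include technical variation.

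The bile duct epithelium carries bile out of the liver, modifies it by secreting fluid and bicarbonate, and forms only a small part of the organ beside the hepatocytes. Its cells are held together by keratin filaments and tight junctions. Notch signalling from the portal mesenchyme drives liver progenitors toward the duct fate, with the transcription factors Sox9 and Sox4 acting in the developing ducts, and in injured liver hepatocytes near the portal tract can also switch on Sox9. Krt19 and Krt7 encode the keratins that distinguish duct cells from hepatocytes, which make Krt8 and Krt18. Epcam encodes an adhesion molecule of duct and progenitor cells, and Cldn7 encodes a tight junction claudin.

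The smallest library held 19.98 M reads and the largest 69.17 M. Reads of Rn18s-rs5, a ribosomal RNA gene, took 6.05% to 16% of each NZO library and 0.837% to 9.48% of each library outside NZO. Xist, transcribed from the inactivated X, was at least 646 CPM or at most 8.9 CPM in every library, and every strain held libraries of both kinds. Levels are given in CPM, counts per M reads, scaled for library size with TMM factors.

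By the annotation of GRCm38, Krt19 lies on chromosome 11 (100140810 to 100148665), Krt7 on chromosome 15 (101411043 to 101430313), Epcam on chromosome 17 (87635979 to 87651106), Cldn7 on chromosome 11 (69964779 to 69967885), Sox9 on chromosome 11 (112782224 to 112787760) and Sox4 on chromosome 13 (28948919 to 28953713). All 6 genes were scarce in whole liver. Per kilobase of exon, the mean level over all libraries was 1.20 CPM for Sox9, 0.478 for Sox4, 0.41 for Epcam, 0.396 for Krt19, 0.131 for Cldn7 and 0.0689 for Krt7. Exon length counted each base of any annotated transcript once, which gave 7.05 kb for Krt7 and 1.95 kb for Cldn7. Before division by length, Krt7 had the higher mean of these 2, 0.486 CPM against 0.255 CPM. Among all tested genes, the undivided mean placed Sox9 at the 41.4th percentile and Cldn7 at the 6.78th. The median library held 111.5 reads of Sox9, 57 of Sox4, 28 of Epcam, 20 of Krt19, 14 of Krt7 and 8 of Cldn7, and 2 libraries had no read of Cldn7. Counting error is therefore widest for Cldn7 and Krt7. The hepatocyte markers together ranged from 37500 to 155000 CPM. In bulk liver, fewer duct cells and less of a transcript per duct cell cannot be told apart.

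By the test among the 8 strains (edgeR quasi-likelihood F test, Benjamini-Hochberg adjusted p under 0.05 over all tested genes), 5 of the 6 genes were called, all but Cldn7, against 89.8% of all tested genes. That share is near the background and says nothing particular of these genes. Of the variance of log2 CPM, 58.4% lay between strain means for Sox4, 55.9% for Krt19, 53.2% for Sox9, 46.9% for Epcam, 27.4% for Krt7 and 18% for Cldn7, beside a median of 49.28% over all tested genes. These shares are not corrected for the number of strains, so part of each arises without any strain difference. For Cldn7 the F test gave an adjusted p of 0.277. When each strain was set against the mean of the other 7, 15 of the 48 gene and strain combinations were called. In PWK 3 of the 6 genes were called, all lower, and in B6 3 were called, all higher, against 45.2% and 34.1% of all tested genes in the same contrasts. In Cast 2 were called and in NOD 2, all higher, against 59.6% and 28.3%. In AJ 2 were called, both lower, against 24.1%. NZO had 1 higher and 1 lower, against 46.1%, and strain-129 had 1 lower, against 24.6%. WSB had none, against 45.0%, and 2, both lower, when library totals replaced TMM factors. With only 6 genes, nothing particular to them is read from these counts.

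**Figure D1:**
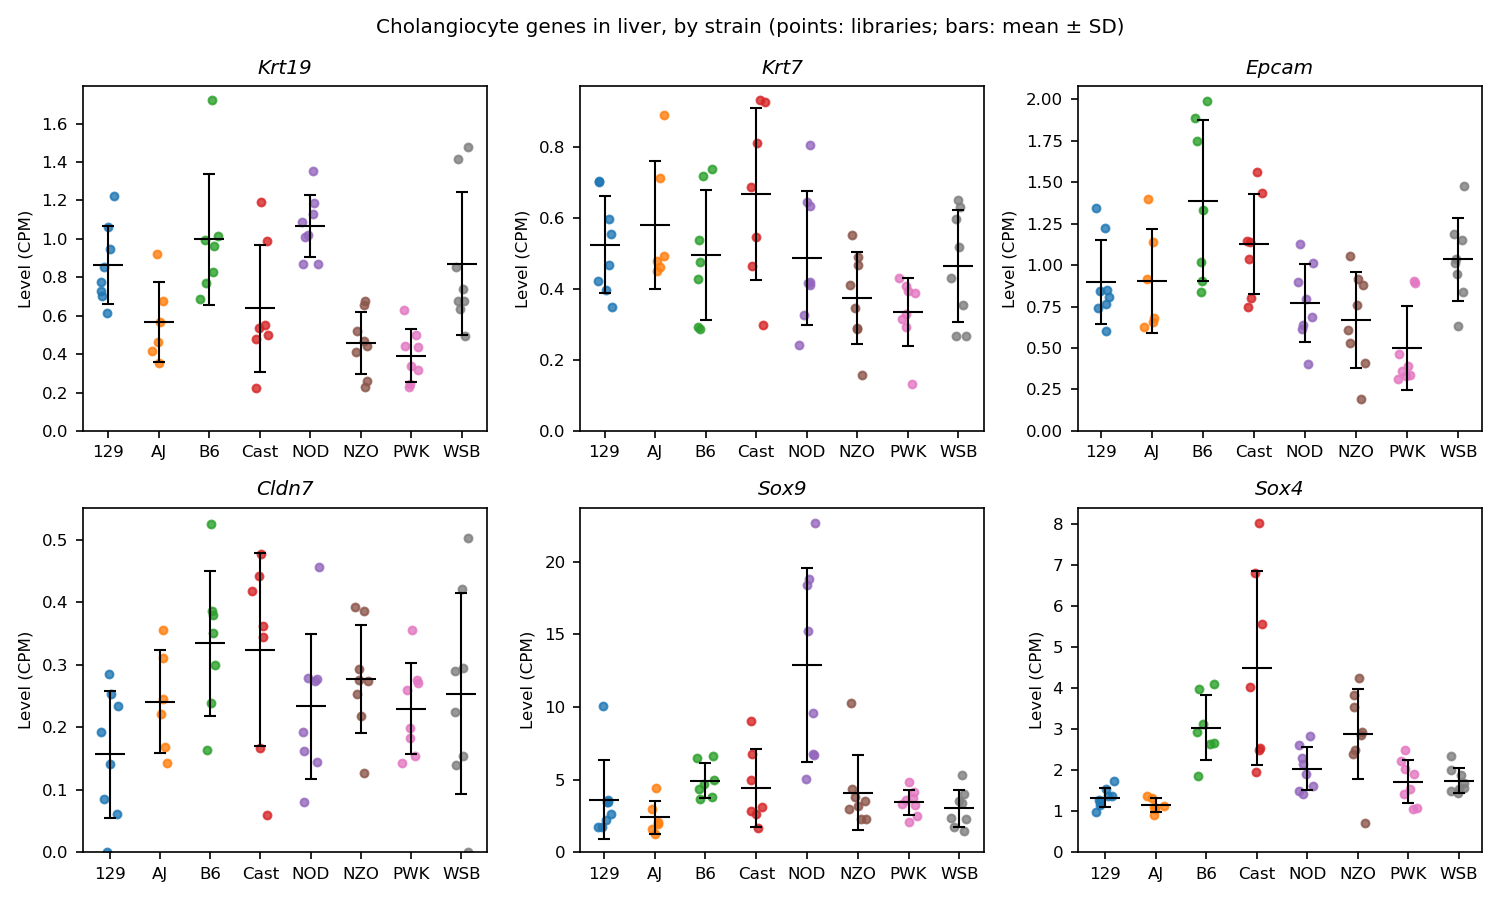
Level in CPM of the 6 genes in each library (points) of each strain, with the strain mean and SD (horizontal and vertical bars). By strain mean, Sox9 is highest in NOD and Sox4 in Cast, while Krt19 is lowest in PWK and NZO. Cldn7 overlaps in every pair of strains.

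Krt19, the keratin most often used to stain bile ducts, was lowest in PWK and NZO and highest in NOD and B6. Its level in PWK libraries was 0.227 CPM at the lowest, 0.388 at the median and 0.631 at the highest, and averaged 0.392 ± 0.137 CPM (SD, n = 8) against a mean of 0.78 CPM over the other 7 strains. All 8 PWK libraries lay below the mean of the others, and the log2 fold change was -0.94 ± 0.21 (SE; edgeR adjusted p = 0.000196). NZO libraries held 0.23 to 0.678 CPM with a median of 0.456 (log2 fold change -0.66 ± 0.20, adjusted p = 0.00614). NOD libraries held 0.868 to 1.35 CPM with a median of 1.05, and the log2 fold change was 0.71 ± 0.18 (adjusted p = 0.00161). The ranges of NOD and PWK libraries did not overlap (40.0% of all tested genes were called between these strains). Nor did those of NOD and NZO (32.7%), B6 and PWK (43.2%) or B6 and NZO (21.9%). Here and below, such shares count genes called by the edgeR test, not genes without overlap. The share of all tested genes whose ranges do not overlap is not given here, so these separations have no background beside them. In B6 the level was 0.689, 0.964 and 1.72 CPM at the lowest, median and highest, with a log2 fold change of 0.59 ± 0.19 (adjusted p = 0.0126). This call rested on library 4, the highest, since without it the adjusted p was 0.125 and the log2 fold change 0.40. Of 28 pairs of strains 13 were called, but none of the 7 pairs of neighbours in the order of levels, so the order of neighbours is not resolved. Over all tested genes, 37.5% of the comparisons between 2 strains were called.

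Krt7, the other duct keratin, varied less. It was lower in PWK, with 0.133, 0.359 and 0.432 CPM at the lowest, median and highest and a mean of 0.336 ± 0.0957 CPM against 0.514 CPM over the other 7 strains (log2 fold change -0.58 ± 0.21, edgeR adjusted p = 0.0169). Without PWK library 4, the lowest, the adjusted p was 0.0719. Cast was the highest strain, with 0.298 to 0.932 CPM, a median of 0.688 and a log2 fold change of 0.54 ± 0.19 (adjusted p = 0.0147). Leaving out Cast library 5 or 6 ended that call (adjusted p up to 0.0686). The ranges of AJ and PWK libraries did not overlap (38.1% of all tested genes called). Of 28 pairs of strains 4 were called, against 37.5% of such comparisons over all tested genes. None of the 7 pairs of neighbours in the order was called.

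Epcam was highest in B6 and lowest in PWK. B6 libraries held 0.839, 1.33 and 1.99 CPM at the lowest, median and highest, and averaged 1.39 ± 0.486 CPM (SD, n = 7) against 0.844 CPM over the other 7 strains. Of the 7 B6 libraries, 6 lay above the mean of the others (log2 fold change 0.75 ± 0.19, edgeR adjusted p = 0.00138). In PWK the level was 0.315 to 0.907 CPM with a median of 0.378, and all 8 libraries lay below the mean of the others, 0.97 CPM (log2 fold change -0.91 ± 0.21, adjusted p = 0.000311). No pair of strains had ranges that did not overlap, although 9 of 28 pairs were called, against 37.5% of such comparisons over all tested genes. Cast (log2 fold change 0.41 ± 0.20, adjusted p = 0.063) and NZO (-0.44 ± 0.20, adjusted p = 0.0637) lay just outside the threshold and passed it in some of the alternative fits.

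Cldn7 was called in no strain against the mean of the other 7. Its mean was lowest in strain-129, at 0.157 ± 0.102 CPM (SD, n = 8) against 0.271 CPM over the other 7 strains, with a log2 fold change of -0.72 ± 0.32 (edgeR adjusted p = 0.0883). B6 was highest at 0.335 ± 0.116 CPM. Of the 28 pairs of strains 1 was called, with Cldn7 higher in Cast than in strain-129 (log2 fold change 0.99 ± 0.40, adjusted p = 0.0353; 51.5% of all tested genes called). The lower level in strain-129 passed the threshold with limma on the deposited log2 values (-0.21, adjusted p = 0.0368) and in edgeR without WSB library 6 (adjusted p = 0.0499). Few reads supported each value.

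**Figure D2:**
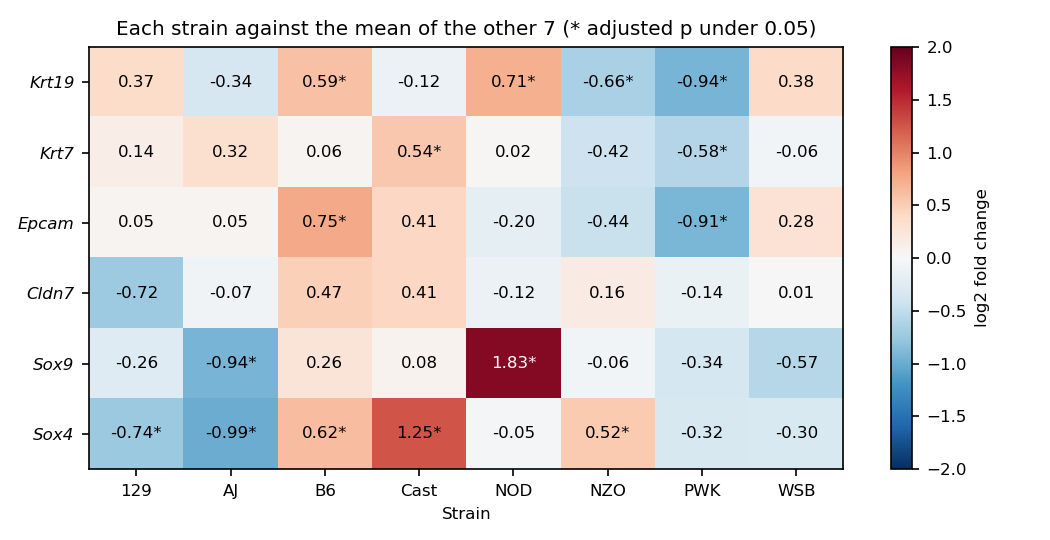
log2 fold change of each gene (rows) in each strain (columns) against the unweighted mean of the other 7 strains, with an asterisk where the adjusted p was under 0.05. The values range from -0.99 for Sox4 in AJ to 1.83 for Sox9 in NOD.

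Sox9, the transcription factor of duct cells and of activated periportal hepatocytes, stood out in NOD. Its level in NOD libraries was 5.05 CPM at the lowest, 12.4 at the median and 22.6 at the highest, and averaged 12.9 ± 6.69 CPM (SD, n = 8) against 3.71 CPM over the other 7 strains, of which AJ was lowest at 2.41 CPM and B6 highest at 4.94 CPM. All 8 NOD libraries lay above the mean of the others (log2 fold change 1.83 ± 0.22, edgeR adjusted p = 1.36e-09). The NOD range overlapped neither that of PWK (40.0% of all tested genes called between NOD and PWK) nor that of AJ (16.2%). NOD also exceeded B6, the next strain in the order (log2 fold change 1.38 ± 0.35, adjusted p = 0.00245; 24.3% of all tested genes called). No other pair of neighbours in the order was called. AJ was lowest, at 1.28, 2.04 and 4.45 CPM for the lowest, median and highest library (log2 fold change -0.94 ± 0.32, adjusted p = 0.0246). Leaving out AJ library 2, 4, 6 or 8 ended that call (adjusted p up to 0.0822). The mean of strain-129 rested partly on library 7, at 10.05 CPM beside 3.59 CPM in the next.

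Sox4, a transcription factor that acts with Sox9 in duct morphogenesis, had its highest strain mean in Cast. Cast libraries held 1.96 CPM at the lowest, 4.04 at the median and 8.03 at the highest, and averaged 4.49 ± 2.36 CPM (SD, n = 7) against 1.99 CPM over the other 7 strains. Of the 7 Cast libraries, 6 lay above the mean of the others (log2 fold change 1.25 ± 0.17, edgeR adjusted p = 5.39e-09), and Cast exceeded B6, the next strain, with a log2 fold change of 0.56 ± 0.24 (adjusted p = 0.0473; 57.1% of all tested genes called). B6 was higher than the mean of its 7 comparison strains as well, at 1.85, 2.94 and 4.10 CPM (log2 fold change 0.62 ± 0.18, adjusted p = 0.00495). The 2 strains with the lowest levels were AJ, with 0.9 to 1.37 CPM (log2 fold change -0.99 ± 0.22, adjusted p = 0.000534), and strain-129, with 0.984 to 1.74 CPM (log2 fold change -0.74 ± 0.19, adjusted p = 0.0025). The AJ range overlapped neither that of Cast (50.8% of all tested genes called) nor that of B6 (18.4%), and the strain-129 range likewise neither that of Cast (51.5%) nor that of B6 (22.5%). NZO also lay above the mean of the others (log2 fold change 0.52 ± 0.17, adjusted p = 0.00871), with libraries from 0.709 to 4.25 CPM. Leaving out NZO library 4 ended that call (adjusted p = 0.0524). Without the 4 NZO libraries in which Rn18s-rs5 took the largest shares of reads, the log2 fold change was 0.18 and the adjusted p 0.593. Of the 28 pairs of strains 16 were called, against 37.5% of such comparisons over all tested genes.

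The genome sequence just before the start of 2 of these genes, Sox4 and Epcam, is shown. Both carried strain differences and have a promoter entry. The same holds for Krt7, whose sequence is not shown. The sequences are from RefSeq, build GRCm38.p6, which is the B6 genome, so differences between the strains in this window are not shown. They run 5′ to 3′ on the strand of the gene and end just before its RefSeq start. Of the 6 genes, 4 matched an entry. Capitals mark matches, on either strand, to 5 short motifs. A first motif, ACAAAG, is bound by SOX factors. TEAD factors bind CATTCC. Also searched were the general promoter elements, the CCAAT box and the TATA box with letters TATAAA, as well as the GC box, which is written GGGCGG. The Sox4 window, chr13:28953700-28953949 on the minus strand, and the Epcam window, chr17:87635729-87635978 on the plus strand, are:
Sox4: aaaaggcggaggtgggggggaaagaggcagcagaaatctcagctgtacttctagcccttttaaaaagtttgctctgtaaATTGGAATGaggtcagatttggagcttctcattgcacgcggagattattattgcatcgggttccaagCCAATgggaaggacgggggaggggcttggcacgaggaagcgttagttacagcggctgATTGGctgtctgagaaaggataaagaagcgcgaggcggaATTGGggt
Epcam: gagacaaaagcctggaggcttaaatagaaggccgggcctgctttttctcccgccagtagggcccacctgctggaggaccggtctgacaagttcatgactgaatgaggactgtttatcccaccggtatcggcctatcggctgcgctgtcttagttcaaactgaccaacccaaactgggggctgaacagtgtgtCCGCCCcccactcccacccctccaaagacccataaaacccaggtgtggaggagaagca

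The Sox4 window held the CCAAT box in 4 places, 1 of them overlapping a TEAD match. By the gene positions given earlier, Sox4 reaches 28953713, so the last bases of this window lie inside that interval. The CCAAT match closest to the RefSeq start is among those bases. Of 32851 RefSeq promoter windows of the same length, 33.8% held a CCAAT box and 12.6% a TEAD match. The Epcam window held 1 GC box, which 32.7% of windows held. Neither window held the SOX motif or the TATA box, which 16.5% and 12.4% of windows held. These matches describe letters only.

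Sox9 and Sox4 also moved with Xist, in ways that differed between strains. This comparison was added after the levels had been seen, and it compares libraries by Xist level, since the labels give no sex. In NOD and Cast, every high-Xist library was numbered 1 to 4 and every low-Xist library 5 to 9. Xist level and library number therefore cannot be told apart in these strains. In NOD, the 4 libraries of low Xist held 15.2 to 22.6 CPM of Sox9 and the 4 of high Xist 5.05 to 9.58 CPM. In Cast the order was the opposite, with 1.65 to 3.1 CPM in the 4 libraries of low Xist and 5.01 to 9.06 CPM in the 3 of high Xist. Low-Xist libraries were higher in WSB, too, at 3.4 to 5.33 CPM against 1.48 to 2.35 CPM, and lower in AJ, at 1.28 to 1.63 CPM against 1.97 to 4.45 CPM. In the remaining 4 strains the ranges overlapped, and for WSB and AJ the fitted slopes below did not pass the threshold (adjusted p = 0.0795 in WSB and 0.489 in AJ). Among the high-Xist libraries, the Sox9 ranges of NOD and Cast thus overlapped. A model with a separate slope on log2 Xist for each strain, fitted to all tested genes, gave different slopes among strains for Sox9 (adjusted p = 0.000248) and Sox4 (adjusted p = 0.0213), against 19.9% of all tested genes. For Sox9 the slope per log2 unit of Xist was 0.17 in Cast (adjusted p = 0.00297) and -0.15 in NOD (adjusted p = 0.00448).

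Sox4 in Cast moved the other way from Sox9 in Cast. Its level was 4.04 to 8.03 CPM in the 4 low-Xist libraries and 1.96 to 2.54 CPM in the 3 high-Xist libraries, and the slope was -0.15 (adjusted p = 0.000857). Among high-Xist libraries, Cast therefore did not stand above the other strains in Sox4. Its range lay within that of B6 (1.85 to 4.10 CPM) and overlapped that of NZO (2.39 to 4.25 CPM). Krt19 in Cast was 0.535 to 1.19 CPM in low-Xist and 0.225 to 0.499 CPM in high-Xist libraries (slope -0.12, adjusted p = 0.0314). Krt19 in B6 had the opposite order, at 0.689 to 0.826 CPM in the 3 low-Xist and 0.964 to 1.72 CPM in the 4 high-Xist libraries, with a slope that did not pass the threshold (0.06, adjusted p = 0.361). Krt7 in Cast was 0.688 to 0.932 CPM in low-Xist and 0.298 to 0.547 CPM in high-Xist libraries (slope -0.11, adjusted p = 0.0568). In Cast 22.3% of all tested genes had a called slope, and in NOD 10.7%. The slopes of Krt19 did not differ among strains beyond the threshold (adjusted p = 0.0909), nor did those of Krt7, Epcam and Cldn7.

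**Figure D3:**
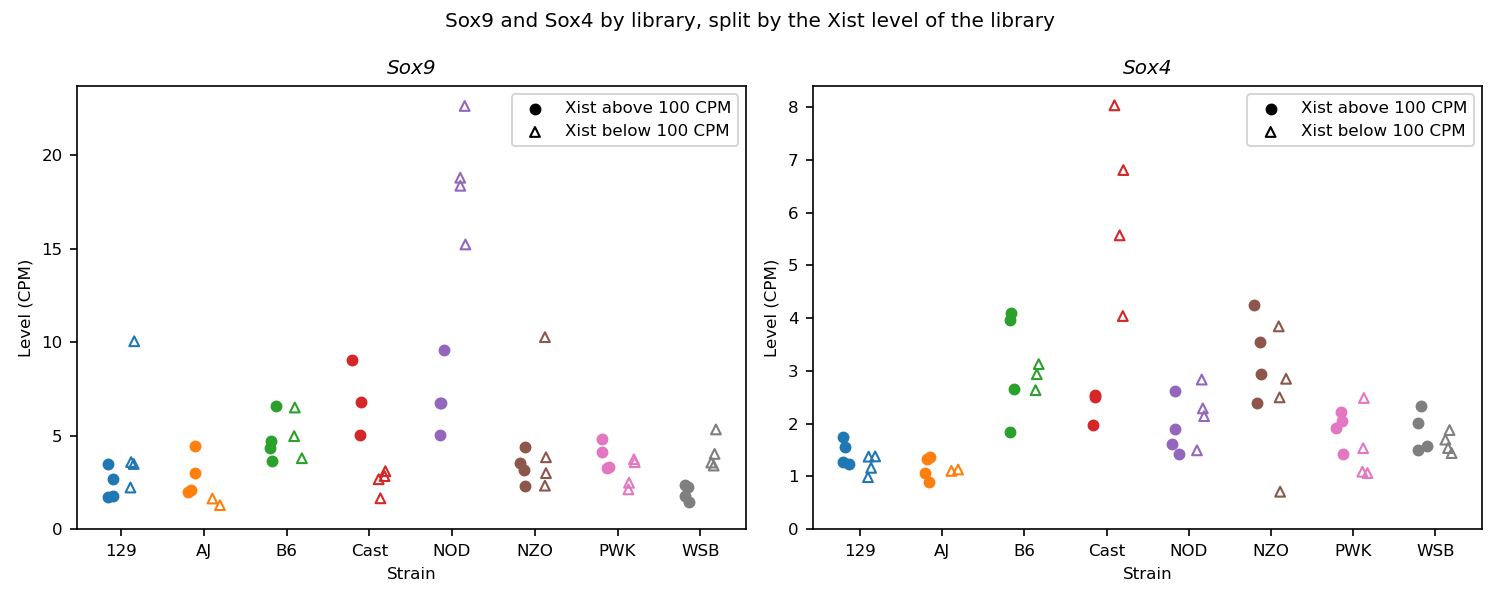
Level in CPM of Sox9 (left) and Sox4 (right) in each library by strain, with filled circles for libraries with Xist above 100 CPM and open triangles for those below. Low-Xist libraries lie above high-Xist ones for Sox9 in NOD and below them for Sox9 in Cast, and above them for Sox4 in Cast.

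Within strains, no joint movement of the 6 genes passed a test pooled over all strains. Each pair had 1 r over all strains, so joint movement confined to 1 strain was not tested. After removing each strain's mean from log2 CPM, none of the 15 pairs of genes was correlated over the 60 libraries at a Benjamini-Hochberg adjusted p under 0.05 (permutation of libraries within strains). The strongest were Krt19 with Sox9 (Pearson's r -0.30, permutation p = 0.0271; Spearman's rho -0.30, permutation p = 0.025) and Epcam with Sox9 (r -0.27, permutation p = 0.0429; rho -0.28, permutation p = 0.0357), both with an adjusted p of 0.322 for r. Without the 2 libraries farthest from the median, r was -0.24 and -0.20 for these pairs. The 2 keratins had an r of -0.03. By the same measure, the genes most like each of the 6, with no p given, were Cdkal1 for Krt19 (r = 0.57), Ebf4 for Krt7 (0.61), Ttc32 for Epcam (0.53), Irf5 for Sox9 (0.64), Itga11 for Sox4 (0.67) and Bcat2 for Cldn7 (0.53). The points share library depth, and these genes were picked as the highest among all those tested.

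**Figure D4:**
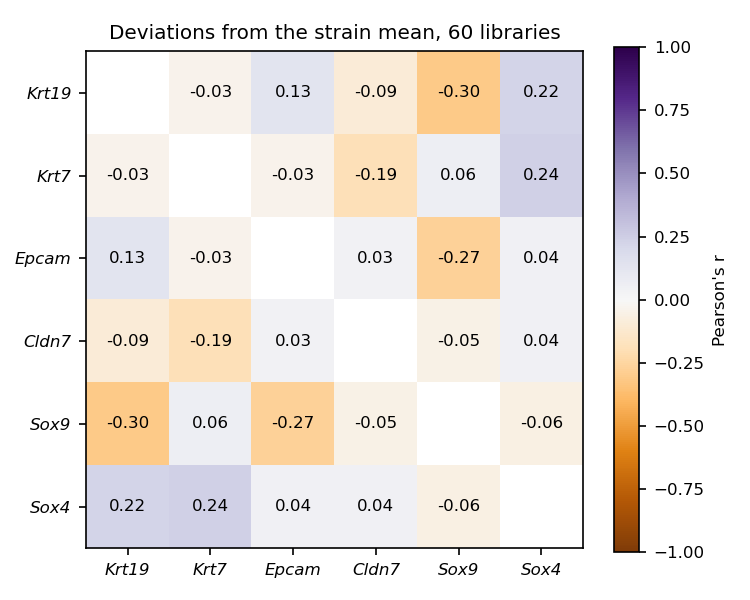
Pearson's r between each pair of the 6 genes over 60 libraries, from log2 CPM after removal of the strain mean. Values run from -0.30 to 0.24, and none passed the adjusted threshold.

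Other genes of the bile duct gave context. Of 50 genes in 5 lists for duct keratins, adhesion, transcription factors, transport and cilium, 45 were tested. In PWK, 10 of the 45 were higher and 18 lower than the mean of the other 7 strains (62.2% called, against 45.2% of all tested genes), and the median log2 fold change was -0.21 beside -0.01 over all genes. Among the lower ones in PWK were Pkd2, a channel of the primary cilium (log2 fold change -1.69, edgeR adjusted p = 2.5e-26), and Tm4sf4, a surface protein (-0.63, adjusted p = 0.0243, up to 0.0671 when PWK library 3, 4 or 9 was left out). Of 14 tested genes for adhesion and the cell surface, 7 were lower and 2 higher in PWK (64.3%, against 45.2%). Chosen after their values were seen, Muc1 (-0.89, adjusted p = 0.000732), Tspan8 (-0.93, adjusted p = 0.000815), St14 (-0.66, adjusted p = 0.0118) and Cd24a (-0.88, adjusted p = 0.0172) were among the lower ones. The 2 higher were Cdh1, which encodes E-cadherin (1.12, adjusted p = 2.58e-06), and Prom1 (1.43, adjusted p = 0.0464), whose call was lost in 16 of the 60 fits that left out 1 library (adjusted p up to 0.197). Onecut1, a transcription factor of hepatocytes and ducts, was also higher in PWK (1.75, adjusted p = 4.6e-05), as was Krt23 (1.52, adjusted p = 9e-04). In B6, where Krt19, Epcam and Sox4 were higher, 14 of the 45 were higher and 2 lower (35.6%, against 34.1%). WSB, with none of the 6 genes called, had 7 of the 45 higher and 14 lower (46.7%, against 45.0%). Its median log2 fold change was -0.245, beside -0.015 over all genes, so lower duct genes were not particular to PWK.

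Notch pathway genes, which act upstream of Sox9 in duct fate, were higher in B6 for 10 of 14 and lower for none, against 34.1% of all tested genes called there. They included the receptors Notch1 (log2 fold change 0.38, adjusted p = 0.00458) and Notch2 (0.29, adjusted p = 0.00161). Over the fits that left out 1 library, the number higher in B6 ranged from 7 to 11. In NOD, where Sox9 was highest, 4 of the 14 were called (28.6%, against 28.3% of all tested genes), so the list did not stand apart from the background there. In Cast 4 were higher and 5 lower (64.3%, against 59.6%), with Notch1 lower (-0.97, adjusted p = 8.05e-10). NZO had 7 higher and 2 lower (64.3%, against 46.1%), and WSB 3 higher and 6 lower (64.3%, against 45.0%).

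Markers of other cells also moved with strain. Krt19 and Krt7 are also made by mesothelium, the lining of the liver surface. Of 11 mesothelial markers, 5 were higher and none lower in Cast, where Krt7 was higher, and none higher and 3 lower in PWK, where Krt19 and Krt7 were lower. These calls, each in 1 direction, made up 45.5% and 27.3% of the list. Of all tested genes, 59.6% and 45.2% were called in either direction. In the matching direction, 4974 of the 16165 tested genes were higher in Cast and 3668 were lower in PWK. The median log2 fold change of the list was 0.555 in Cast and -0.453 in PWK. Without Cast library 1, 3 of the 11 were higher in Cast. The summed level of the list was 32.8 to 63.9 CPM in Cast libraries and 37.3 to 51.6 CPM in PWK libraries, most of it from Slc39a8, a transporter that hepatocytes also make. In PWK the mesothelial gene Gpm6a averaged 0.309 ± 0.165 CPM (log2 fold change -2.0, edgeR adjusted p = 1.7e-13). In B6, 10 of 10 Kupffer cell markers and 10 of 10 lymphocyte markers were higher, against 34.1% of all tested genes called, and in NZO 8 of 10 of each, against 46.1%. The summed Kupffer level was 307 to 808 CPM in B6 libraries and 241 to 978 CPM in NZO libraries. In Cast, 1 of the Kupffer markers was higher and 9 lower, and 8 of 10 lymphocyte markers were lower, against 59.6% of all tested genes called, with a summed Kupffer level of 92.7 to 244 CPM. In NOD, where Sox9 was highest, 2 of 10 Kupffer markers and 5 of 7 tested red cell markers were called, against 28.3% of all tested genes, and these 5 were higher. The part of these markers in the results for the 6 genes was not tested. Of 12 pancreatic acinar markers 2 were in the table, and of 12 intestinal and gallbladder markers 6 were.

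**Figure D5:**
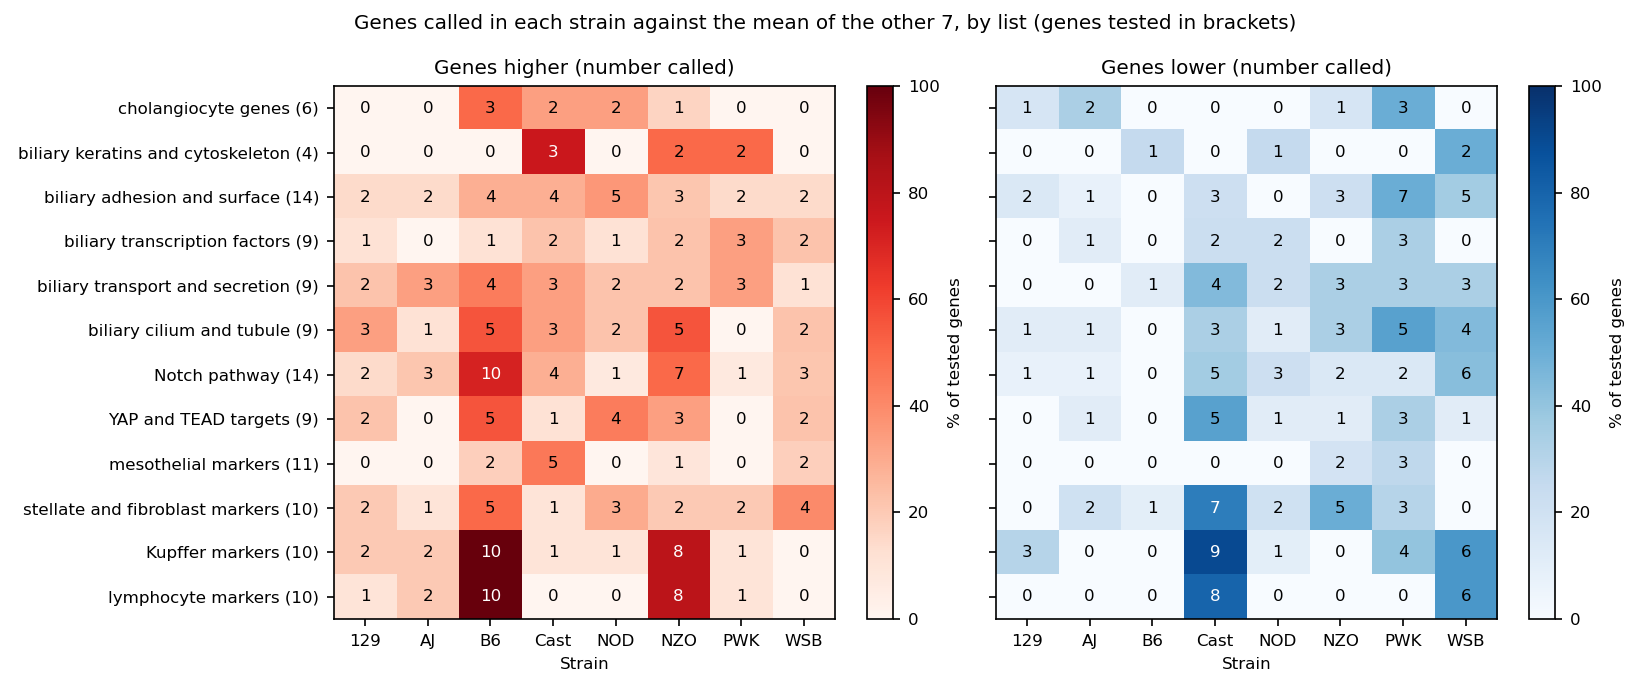
Number of genes called higher (left) and lower (right) in each strain against the mean of the other 7, for the 6 genes (top row) and 11 lists, with the number of genes tested in brackets and colour for the share of the list in percent. The Notch list has 10 of 14 genes higher in B6, and the Kupffer and lymphocyte lists have 10 of 10.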

How the data were processed

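RNA was sequenced from liver after selection of polyadenylated RNA, per the labels' protocols. The authors deposited expected counts of reads per gene, of which 21% of values were not whole; the design had assumed whole counts, so they were rounded. The authors also deposited log2 values from a variance-stabilising transformation, used here as an alternative. The submitters' processing notes name GRCm38 and DESeq2, without a version; the aligner, counter, annotation release and strand setting, not given in the sources used here, are unknown. Of 61 labelled samples 60 had a column, and 1 column matched no sample and was not used.

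Counts were tested in R 4.3.3 with edgeR 4.0.16 (TMM, filterByExpr by strain, quasi-likelihood F test, strain as the only term, Benjamini-Hochberg over the 16165 tested genes, threshold 0.05). Each strain was set against the unweighted mean of the other 7 on the log scale, and printed means of the other strains are arithmetic means of strain means. Exon lengths came from GENCODE annotation of GRCm38 and joined the exons of all transcripts of a gene. Alternatives used DESeq2 1.42.0 and limma 3.58.1 and left out each library in turn; the fit was tested on simulated data. Reads copied by PCR are not independent molecules, so read numbers describe counting error only. The 6 genes and all gene lists were chosen with earlier results of these data known. Genes outside the 6 are named by level in their list, by size of change in the 5 duct lists, or by likeness within strains; exceptions are marked. Slopes on Xist, and the fit without 4 NZO libraries, were added after seeing the data.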

Additional observations from a re-analysis of the deposited data

Results flagged for a closer look

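In 4 of 48 groups of libraries of 1 gene in 1 strain, 1 library lay far from the rest; chance alone sets apart about 1 in 20 groups. Krt19 in B6 was 1.72 CPM in library 4, beside 1.02 CPM in the next. Krt7 in PWK was 0.133 CPM in library 4, beside 0.292 CPM in the next. Sox9 was 10.05 CPM in strain-129 library 7, beside 3.59 CPM in the next, and 10.3 CPM in NZO library 8, beside 4.37 CPM in the next. Among NZO libraries, library 8 also had the highest summed Kupffer (978 CPM) and lymphocyte (106 CPM) markers and the lowest summed hepatocyte markers (37500 CPM). Whether this bears on its Sox9 level was not tested.

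The relation of Sox9 to Xist differed among strains (edgeR test of unequal slopes, adjusted p = 0.000248), as did that of Sox4 (adjusted p = 0.0213). Its cause was not tested.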

How the results depend on the processing

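The number of genes called among strains was 5 and stayed 5 under each alternative except a filter of at least 1 CPM on average, which gave 2, with 7 strain contrasts in place of 15 and 24 pairs in place of 52, because only Sox9 and Sox4 pass it. Over the 60 fits that left out 1 library, strain contrasts called ranged from 14 to 18 and pairs from 47 to 56. The calls of Krt19 in B6, Krt7 in Cast, Krt7 in PWK, Sox9 in AJ and Sox4 in NZO were each lost in at least 1 of these fits. Epcam in Cast passed the threshold in 16 of them and Epcam in NZO in 9.

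The labels do not say that a replicate number marks a shared batch or day, so the main fit used no block. Same-numbered libraries did deviate together in part: 131 of 181 pairs correlated above 0.1 (median r 0.201, other pairs -0.07), and 7 of 60 libraries matched best with their own number. The numbers also follow Xist, since 28 of 30 libraries numbered 1 to 4 and 3 of 30 numbered 5 to 9 were high in Xist. With the replicate block, 5 genes, 16 strain contrasts and 47 pairs were called, with 485 calls of other list genes in place of 492. Sox9 in AJ then had a log2 fold change of -0.80 (adjusted p = 0.0666), and Epcam in Cast (0.48, adjusted p = 0.0351) and in NZO (-0.48, adjusted p = 0.048) passed.

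With library totals in place of TMM, the share of calls that were higher was 69.6% in strain-129 (55.7% with TMM), 72.9% in B6 (56.9%), 46.2% in NZO (57.8%) and 27.1% in WSB (50.3%), and the median of all genes in WSB was -0.15. Strain contrasts called were then 20 in place of 15, and WSB gained Sox9 (-0.70, adjusted p = 0.0331) and Sox4 (-0.44, adjusted p = 0.0439). Eef1a1, which varied with Krt7 within strains (r = 0.587), changed sign in WSB. Its log2 fold change was then -0.007 (edgeR adjusted p = 0.942), so it was not called. Depth limits Cldn7 and Krt7 most.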

Other observations

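Duct genes outside the 6 showed their own strain patterns. In Cast, Bicc1, an RNA-binding protein of kidney and bile duct tubules, averaged 16.5 ± 8.1 CPM (SD, n = 7; log2 fold change 1.78 against the mean of the other 7 strains, edgeR adjusted p = 5.38e-17), and Ncam1, an adhesion molecule of reactive ducts, 1.66 ± 0.638 CPM (2.30, adjusted p = 2.12e-12). Cast had little of 2 bile acid and anion transporters. Slc10a2, which takes up bile acids, averaged 0.695 ± 0.649 CPM in Cast (log2 fold change -5.29, adjusted p = 2.53e-17), and Abcc3, a basolateral exporter that hepatocytes also make, 26.3 ± 18.8 CPM (-2.72, adjusted p = 2.19e-09).

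In NZO, the epithelial transcription factor Elf3 averaged 9.07 ± 10.5 CPM, with libraries from 2.62 to 34.7 CPM (SD, n = 8; log2 fold change 3.64, edgeR adjusted p = 4.3e-19), and Lamb3, a laminin chain, 12.9 ± 6.21 CPM (1.73, adjusted p = 1.91e-11). Krt8 and Krt18, the keratins of hepatocytes and ducts alike, passed the threshold in Cast (0.37, adjusted p = 0.0446, and 0.54, adjusted p = 0.00398) through 1 library. Cast library 5 held 504.2 CPM of Krt8 and 437.6 CPM of Krt18, and the other 6 held 49.7 to 166 CPM and 66.9 to 180 CPM. Without it the log2 fold changes were -0.18 (adjusted p = 0.238) and 0.003 (adjusted p = 0.988), and 1 of the 4 keratins other than Krt19 and Krt7 was called in Cast in place of 3.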
